A study of Mus musculus with 6 samples.

Results

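Egr1, Egr2, Egr3, Nr4a1, Nr4a2, Nr4a3, Nfatc1, Nfatc2 and Nfatc3 encode transcription factors that carry the signal of the T cell receptor into the nucleus. These 9 genes were taken by symbol from a deposited table of 14868 genes, and all 9 had a row and passed the filter on low values. The table compares CD4+ T cells of wild-type mice (WT, 3 libraries) with those of mice without Ikzf4 (Ikzf4-/-, 3 libraries), the gene of the Ikaros-family factor Eos, all on a C57BL/6J background. Both groups started as naïve cells and were stimulated for 72 h on plates coated with anti-CD3 at 5 µg/mL and anti-CD28 at 2 µg/mL, in a medium with IL-4 at 10 ng/mL and anti-Ifng at 10 µg/mL that directs them to the T helper 2 (Th2) type. The genotype is named without a Cre driver or a description of the allele, the age and sex of the mice are not given in the sources used here, and nothing says whether the 3 libraries of a group came from separate animals or cultures. P-values therefore measure the spread between these libraries, which may be technical.

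The 3 families all answer to signals of the T cell receptor. EGR genes are immediate-early genes whose proteins have a zinc finger DNA-binding domain. They are switched on in part through the ERK kinases and serum response factor. Egr2 and Egr3 are known for restraining T cells as well as for supporting their expansion. NR4A genes encode orphan nuclear receptors that need no known ligand, so that their activity follows their abundance, and Nr4a1 is widely used as a reporter of receptor signal strength. NFAT proteins are mostly present before stimulation and wait in the cytoplasm until calcium activates the phosphatase calcineurin, which strips their phosphates and lets them enter the nucleus, where they act with AP-1 on cytokine genes. Nfatc1 differs in that its own transcription is raised by receptor signals.

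The sample columns were read as normalized read counts, that is, reads per gene divided by a size factor for each library. Read this way, the genes of the deposited table held 34701390 to 40604346 reads per library. Ikzf4 was at 755.8, 499.6 and 483 in WT replicates 1 to 3 and at 25.2, 10.5 and 38.2 in the Ikzf4-/- replicates, so each library matched its label. All 7 markers of CD4 T cells were present, with a summed normalized count of 78882 to 81441 in WT and 82939 to 85360 in Ikzf4-/- libraries. All 5 Th2 markers were present as well, and their sum moved with genotype, from 23373 to 32857 in WT and from 16315 to 19482 in Ikzf4-/- libraries. Neither sum overlapped between genotypes, and their part in the results was not tested. Of other cell types, the B cell genes Ms4a1 and Pax5 and the myeloid genes Lyz2, Csf1r, Itgam, Adgre1 and Cd14 had no row, and the sums of the markers with a row were at most 90.4 for B cells (2 genes), 96.1 for myeloid cells (1 gene), 299 for natural killer cells (Eomes), 423 for CD8 T cells (Cd8a and Cd8b1), 18.4 for red blood cells (1 gene) and 1366 for stroma (2 genes, mostly Pecam1). For each of these 6 types the ranges of the genotypes overlapped. WT replicate 1 stood apart on the first principal component (40.2% of the variance), at -41.3 against -12.5 and -5.26 in the other WT libraries. Ikzf4-/- replicates 1 to 3 were at 11.1, 17.1 and 30.8, so that Ikzf4-/- replicate 3 lay at the opposite end.

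Per kilobase of exon, the only scale used here to set genes against each other, Nr4a1 was the most abundant of the 9 genes and Nfatc2 the least. In WT libraries Nr4a1 stood at 2996 ± 832 normalized counts per kb (SD, n = 3), and its lowest WT value lay above the highest of the next gene, Nfatc1 (1719 ± 73.7). Nfatc1 and Egr1 (1707 ± 154) overlapped, as did Egr2 (1390 ± 152) and Egr3 (1296 ± 237). Nr4a3 followed at 757 ± 138, below every Egr3 value. The last 3 genes were Nfatc3 (363 ± 13.1), Nr4a2 (328 ± 64.7) and Nfatc2 (294 ± 30.8), each overlapping its neighbour. By this measure Nr4a1 lay above 95.6% of all genes and Nfatc2 above 62.2%, so none of the 9 was a rare transcript at 72 h. The lengths are those of all annotated exons of a gene joined, which may exceed the transcript in use, most of all for Nfatc2 (10578 bp) and Nfatc3 (11726 bp).

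**Figure D1:**
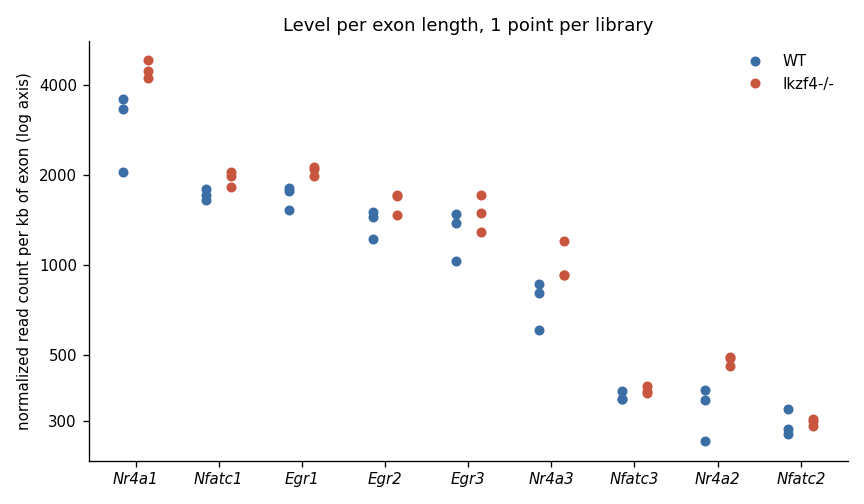
Normalized read count per kb of annotated exon on a log axis, 1 point per library, for the 9 genes in falling order of their WT mean. Nr4a1 lies highest, and Nfatc3, Nr4a2 and Nfatc2 form a low group with overlapping WT values.

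The NR4A and NFAT families were each led by a single gene, and the make-up of the families was close in both genotypes. Nr4a1 gave 73.0% ± 2.20 of the NR4A sum per kb in WT and 75.2% ± 0.817 in Ikzf4-/- libraries (SD, n = 3 each), and Nfatc1 gave 72.3% ± 1.76 and 74.2% ± 1.45 of the NFAT sum. The EGR sum was shared more evenly, with Egr1 at 39.0% ± 1.44 in WT and 39.9% ± 1.89 in Ikzf4-/- libraries. The ranges of the 2 genotypes overlapped for each of these 3 shares, but only narrowly for Nr4a1 (highest WT 74.35%, lowest Ikzf4-/- 74.29%). The sums themselves were 4082 ± 1034 against 6018 ± 493 for NR4A, 4392 ± 533 against 5192 ± 419 for EGR and 2376 ± 44.2 against 2627 ± 112 for NFAT, in normalized counts per kb, WT first. In each family the highest WT sum lay below the lowest Ikzf4-/- sum. These were 4849 and 5607 for NR4A, 4707 and 4736 for EGR, and 2419 and 2499 for NFAT. Among single genes, 11.0% were higher in Ikzf4-/- libraries without overlap.

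The genotype comparison asked whether these factors are expressed differently when Th2 cells form without Eos. Nr4a2 rose in Ikzf4-/- cells, and it was the only one of the 9 genes called by limma at an adjusted p-value under 0.05 over all genes tested. The background was 1.77% of 14864 genes called in either direction and 0.572% called higher, which were 85 genes against 178 called lower (154 lower and 115 higher when libraries were scaled to equal totals). All 3 NR4A genes, Egr1 and Nfatc1 were higher in every Ikzf4-/- library than in any WT library, 5 of the 9 genes, where this held for 11.0% of all genes, and none of the 9 was lower in that sense (12.2% of all genes). The 9 fitted log2 fold changes (Ikzf4-/- over WT) ran from 0.02 to 0.63 with a median of 0.23, and the median of all genes was 0.00. An unadjusted limma p under 0.05 was reached by 6 of the 9 and by 18.1% of all genes. In bulk RNA, fewer cells that express a gene and less RNA of it per cell cannot be told apart.

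**Figure D2:**
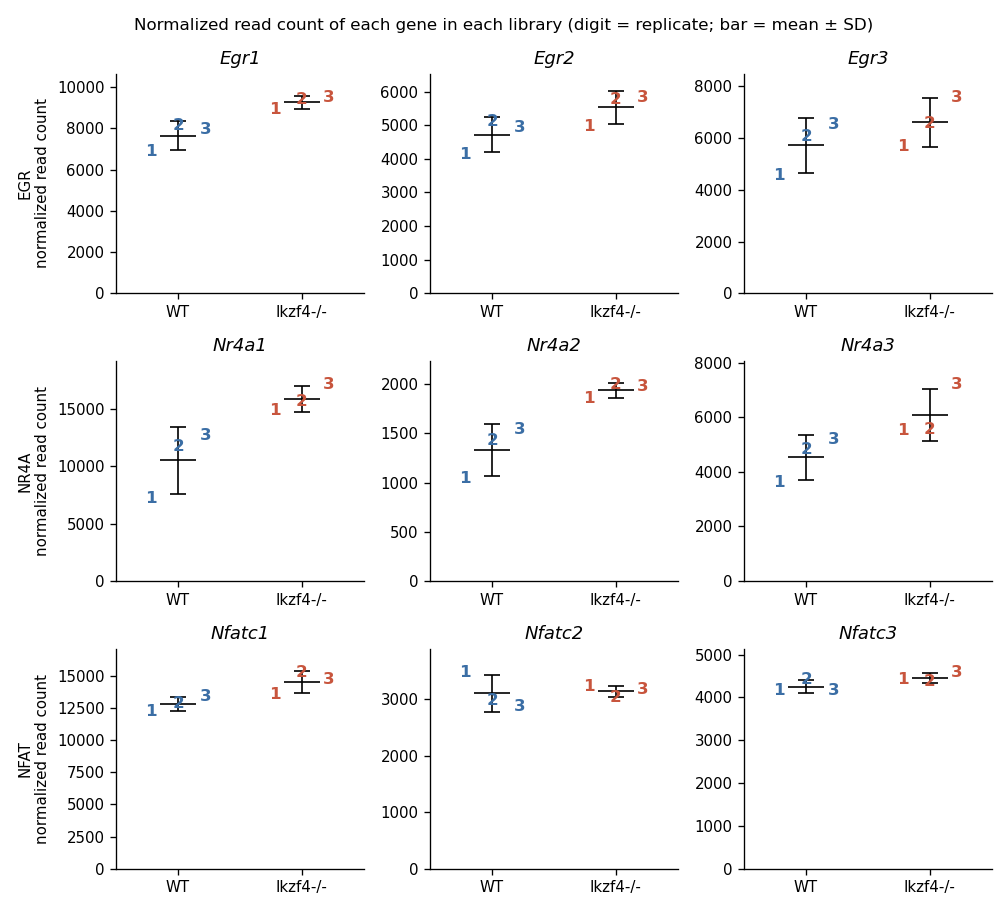
Normalized read count of the 9 genes in WT and Ikzf4-/- libraries on linear axes from 0. Digits are the replicates, and the bars show the mean and SD of 3 libraries. The genotypes do not overlap for Nr4a1, Nr4a2, Nr4a3, Egr1 and Nfatc1, and WT replicate 1 is the lowest library for all EGR and NR4A genes.

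The promoters of the NR4A genes are shown because these genes had the largest fitted fold changes of the 9. The sequences are those of RefSeq on GRCm38.p6, 250 bases before the transcription start, cut where an annotated exon begins. Capitals mark TGACG, the core of the cAMP response element on either strand (read as CGTCA on the other), and, where present, the MEF2 element, which ties calcium signals to transcription, and the CArG box, at which serum response factor binds.
Nr4a1 (chr15:101266596-101266845, plus strand): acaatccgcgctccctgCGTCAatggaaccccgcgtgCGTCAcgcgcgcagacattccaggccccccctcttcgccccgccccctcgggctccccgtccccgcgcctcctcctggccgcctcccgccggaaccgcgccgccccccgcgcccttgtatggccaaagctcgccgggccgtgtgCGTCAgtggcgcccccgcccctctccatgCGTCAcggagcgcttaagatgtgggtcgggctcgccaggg
Nr4a2 (chr2:57124004-57124253, minus strand): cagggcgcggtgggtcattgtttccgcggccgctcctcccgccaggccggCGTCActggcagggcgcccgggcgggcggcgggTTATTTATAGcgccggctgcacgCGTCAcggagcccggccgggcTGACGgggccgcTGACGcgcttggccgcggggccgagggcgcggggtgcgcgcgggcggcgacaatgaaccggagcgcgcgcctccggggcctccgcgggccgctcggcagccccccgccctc
Nr4a3 (chr4:48045055-48045152, plus strand): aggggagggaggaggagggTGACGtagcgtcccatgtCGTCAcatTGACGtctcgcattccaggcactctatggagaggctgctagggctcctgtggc
Egr2 (chr10:67537619-67537868, plus strand), the only EGR gene with an entry in the promoter table: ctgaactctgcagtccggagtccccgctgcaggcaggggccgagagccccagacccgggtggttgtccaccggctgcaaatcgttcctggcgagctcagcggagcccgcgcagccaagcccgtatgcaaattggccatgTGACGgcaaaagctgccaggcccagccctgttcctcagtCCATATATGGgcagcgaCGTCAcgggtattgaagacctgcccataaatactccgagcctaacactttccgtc

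Each NR4A promoter held 4 copies of TGACG in its 250 bases (3 of the 4 in the stretch printed for Nr4a3, where the fourth lies inside an exon). At least 1 copy was found in 17.8% of the 32851 promoters in the same table, some of which overlap, and 4 or more in 45 of them (0.137%). That count was looked at after the 4 copies had been seen. G and C made up 74.4% of the Nr4a1 window, 80% of the Nr4a2 window and 63.6% of the Nr4a3 window. The median of all promoters was 52.4%, and the copies were not set against promoters of like composition. The complete palindrome TGACGTCA was in none of these windows and in 1.55% of all promoters. The 6 genes of the 9 with an entry were Nr4a1, Nr4a2, Nr4a3, Egr2, Nfatc2 and Nfatc3. At least 1 copy of TGACG was found in 5 of them, all but Nfatc2. The CArG box was found in Egr2 (1.47% of all promoters) and the MEF2 element in Nr4a2 (2.92%). The EGR site GCGNGGGCG was found in Nr4a1 and Nr4a2 (4.70% of all). The NFAT core GGAAA was found in Nr4a2, Egr2, Nfatc2 and Nfatc3 (55.6% of all), the TATA box core TATAAA in Nr4a2, overlapping its MEF2 element, and in Nfatc2 (12.4%). The NR4A site AAAGGTCA (1.34%) and the AP-1 site TGANTCA (6.75%) were found in none of the 6. Both strands were searched. Egr2, Nfatc2 and Nfatc3 had more than 1 entry each, of which 1 is printed for Egr2. A gene was counted where any of its entries matched, while the shares are per entry. TGACG was in some but not all entries of Egr2 and Nfatc3. The Nr4a1 and Egr2 windows lie within the span of the annotated gene but in no exon, and the Nr4a2 window ends where the gene begins. A match is a run of letters and does not show that a factor binds there.

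Nr4a2 (ENSMUSG00000026826), known also as Nurr1, lies on the minus strand of chromosome 2 (57106830 to 57124003, GRCm38, as for all positions below). It was at 1037, 1424 and 1537 normalized counts in WT replicates 1 to 3 and at 1850, 1993 and 1971 in Ikzf4-/- replicates 1 to 3. The lowest Ikzf4-/- library was thus 1.20 times the highest WT library. Its mean rose from 1333 ± 262 to 1938 ± 77.1 (SD, n = 3 each), which is 1.45-fold. The fitted log2 fold change was 0.56 ± 0.12 (SE; limma adjusted p = 0.0474). The call was close to the threshold. It was lost without WT replicate 2 (adjusted p = 0.0755) or Ikzf4-/- replicate 1 (0.0981), 2 (0.145) or 3 (0.158), and held without WT replicate 1 (0.0118) or 3 (0.0163). The authors' deposited table gave Nr4a2 a log2 fold change of 0.54 and an adjusted p of 0.000123.

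Nr4a1 (ENSMUSG00000023034, chromosome 15, 101254269 to 101274795 on the plus strand), known as Nur77, had the largest fitted difference of the 9 genes. It was at 7189, 11704 and 12651 in WT replicates 1 to 3 and at 14836, 15664 and 17114 in the Ikzf4-/- replicates. WT replicate 1 stood at 0.590 of the mean of the other WT libraries, the lowest such ratio among the 9 genes. The means were 10515 ± 2919 and 15871 ± 1153 (SD, n = 3 each), a ratio of 1.51, and the fitted log2 fold change was 0.63 ± 0.16 (SE; limma adjusted p = 0.0796). The 95% interval of the log2 fold change, not adjusted for the number of genes, ran from 0.27 to 1.00. Without WT replicate 1 the log2 fold change was 0.38 and passed the test (limma adjusted p = 0.00901), in a fit where 0.555% of genes were called higher. Without WT replicate 3 it was 0.79 and passed as well (0.0261, with 1.28% of genes called higher). The authors' deposited table gave it an adjusted p of 0.128.

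Nr4a3 (ENSMUSG00000028341, chromosome 4, 48045153 to 48086447 on the plus strand), known as Nor1, was at 3605, 4820 and 5181 in WT replicates 1 to 3 and at 5526, 5553 and 7196 in the Ikzf4-/- replicates. The genotypes did not overlap, but the lowest Ikzf4-/- library was only 1.07 times the highest WT library, and Ikzf4-/- replicate 3 stood above the rest. The means were 4535 ± 826 and 6092 ± 957 (SD, n = 3 each), and the log2 fold change was 0.43 ± 0.13 (SE; limma adjusted p = 0.117). Nr4a3 stayed above the threshold whichever library was left out, with a limma adjusted p from 0.0560 to 0.320.

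Among the EGR genes, Egr1 (ENSMUSG00000038418, chromosome 18, 34859823 to 34864984 on the plus strand) had the smallest standard error. It was at 6864, 8137 and 7956 in WT replicates 1 to 3 and at 8902, 9388 and 9514 in the Ikzf4-/- replicates. The genotypes did not overlap, by a factor of 1.09 between their nearest libraries. The means were 7653 ± 689 and 9268 ± 323 (SD, n = 3 each), a ratio of 1.21, and the log2 fold change was 0.28 ± 0.06 (SE; limma adjusted p = 0.0556). Egr1 passed the test without WT replicate 3 (0.0428) and not without any other library (0.0583 to 0.184). In the authors' deposited table it was called, with a log2 fold change of 0.28 and an adjusted p of 0.00260, where 6.34% of the genes with an adjusted p were called and 2.45% were called higher.

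Egr2 (ENSMUSG00000037868, chromosome 10, 67535475 to 67542188 on the plus strand) and Egr3 (ENSMUSG00000033730, chromosome 14, 70077203 to 70082614 on the plus strand) overlapped between genotypes. Egr2 was at 4135, 5105 and 4928 in WT replicates 1 to 3 and at 4973, 5775 and 5835 in the Ikzf4-/- replicates, where replicate 1 lay below WT replicate 2. Its log2 fold change was 0.23 ± 0.08 (SE; limma adjusted p = 0.180). Egr3 was at 4534, 6066 and 6532 in the WT and 5670, 6564 and 7578 in the Ikzf4-/- replicates, and its lowest Ikzf4-/- library lay below 2 WT libraries. Its log2 fold change was 0.22 with a 95% interval from -0.07 to 0.50 (limma adjusted p = 0.419), and without WT replicate 1 it was 0.06 (0.839). Neither gene passed the test when any single library was left out. Egr4, the remaining paralogue, was at 94.7, 71.9 and 130.0 in WT and 166, 154 and 219 in Ikzf4-/- libraries, which did not overlap (log2 fold change 0.88, limma adjusted p = 0.0782). Egr4 was called in the authors' deposited table (adjusted p = 0.00931).

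Nfatc1 (ENSMUSG00000033016, chromosome 18, 80606205 to 80713071 on the minus strand) was the NFAT gene with the largest fitted difference. It was at 12291, 12842 and 13392 in WT replicates 1 to 3 and at 13580, 15312 and 14787 in the Ikzf4-/- replicates. The genotypes did not overlap, but their nearest libraries were only 1.01-fold apart. The means were 12842 ± 550 and 14560 ± 888 (SD, n = 3 each), and the log2 fold change was 0.18 ± 0.05 (SE; limma adjusted p = 0.115). Nfatc1 was under 0.05 in the authors' deposited table (adjusted p = 0.0439).

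Nfatc2 (ENSMUSG00000027544, chromosome 2, 168476410 to 168601657 on the minus strand), which encodes an NFAT protein held ready in resting T cells, showed no difference that these libraries could resolve. It was at 3480, 2976 and 2871 in WT and 3221, 3039 and 3171 in Ikzf4-/- libraries, with WT replicate 1 the highest of all 6. Its log2 fold change was 0.02 with a 95% interval from -0.13 to 0.18 (limma adjusted p = 0.912). The sign turned without WT replicate 2 (-0.01) or 3 (-0.03). Nfatc3 (ENSMUSG00000031902, chromosome 8, 106058840 to 106130537 on the plus strand) varied least, at 4172, 4430 and 4155 in WT and 4412, 4366 and 4588 in Ikzf4-/- libraries, which overlapped. Its log2 fold change was 0.07 with a 95% interval from -0.04 to 0.17 (limma adjusted p = 0.504). Of their paralogues outside the 9, Nfatc4 had no row, and Nfat5, which responds to salt stress and not to calcineurin, had a log2 fold change of 0.13 (0.292).

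**Figure D3:**
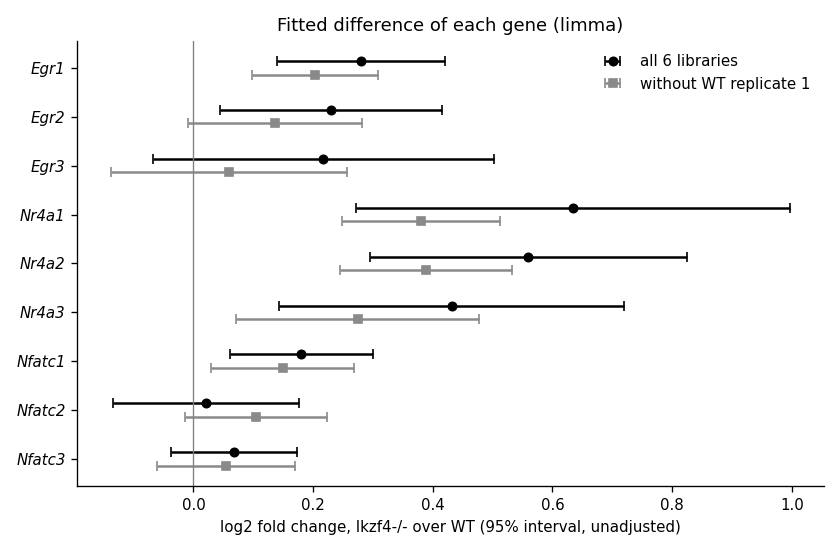
Fitted log2 fold change of the 9 genes, Ikzf4-/- over WT, with 95% intervals that are not adjusted for the number of genes, for all 6 libraries (black) and without WT replicate 1 (grey). The NR4A genes lie farthest from 0 in both fits, and without WT replicate 1 their values are smaller and their intervals narrower.

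WT replicate 1 moved with the EGR and NR4A values. It was the lowest of the 6 libraries for all 6 EGR and NR4A genes, and for 23.6% of all genes. Relative to each gene's own mean over the 6 libraries, its log2 values were -0.82 for Nr4a1, -0.62 for Nr4a2, -0.53 for Nr4a3, -0.42 for Egr3, -0.30 for Egr2 and -0.29 for Egr1. Ikzf4-/- replicate 3 was the highest library for 5 of these 6 genes (18.4% of all genes), and Ikzf4-/- replicate 2 was the highest for Nr4a2. Against WT replicates 2 and 3 alone, the Ikzf4-/- mean was 1.30 times as high for Nr4a1, 1.31 for Nr4a2, 1.22 for Nr4a3, 1.15 for Egr1, 1.10 for Egr2 and 1.05 for Egr3. With all WT libraries these ratios were 1.51, 1.45, 1.34, 1.21, 1.17 and 1.16. Of the NFAT genes, Nfatc1 was also lowest in WT replicate 1, at -0.15 from its mean, whereas Nfatc2 was highest there and Nfatc3 was lowest in WT replicate 3. What set WT replicate 1 apart was not tested.

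**Figure D4:**
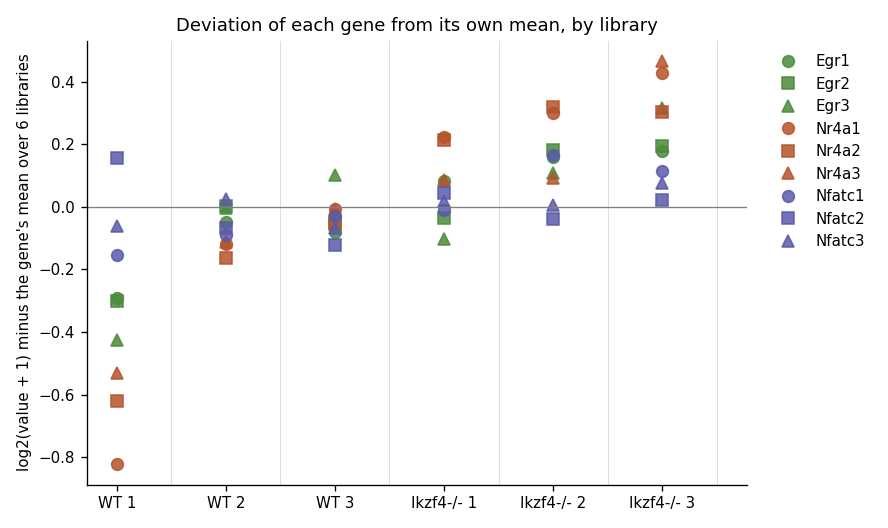
Deviation of log2(value + 1) from each gene's mean over the 6 libraries, by library, with colours for the family (green EGR, orange NR4A, blue NFAT). In WT replicate 1 the EGR and NR4A genes lie between -0.29 and -0.82, and Nfatc2 lies above 0.

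The other genes of these pathways were taken from 8 lists with 88 distinct genes, of which 84 were tested. By limma none was called higher and 7 were called lower in Ikzf4-/- cells, with a median log2 fold change of 0.01, against 0.572% and 1.20% of all genes and a median of 0.00. The 7 were Atf3, Il4, Il13, Nfil3, Lag3, Myc and Junb. The authors' deposited table called these 7 and 4 more lower, 11 of the 83 genes with an adjusted p there. It called 4 higher, namely Egr4, Elk4, Bcl2l11 and Orai2. Over all 12849 genes with an adjusted p, it called 500 lower and 315 higher (2.45%). The 7 belong to the lists of immediate-early genes and of genes known to be linked to NFAT or EGR factors in T cells.

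Upstream of NFAT, none of the 15 genes of calcium entry and calcineurin was called by limma. Their log2 fold changes ran from -0.30 for Ppp3cc, a catalytic subunit of calcineurin, to 0.23 for Orai2, a calcium channel subunit (limma adjusted p = 0.0695), with a median of -0.04. The authors' deposited table called Orai2 higher (adjusted p = 0.0329) and Ppp3cc (0.0391) and the calmodulin gene Calm3 (0.0327) lower. Of the calcineurin inhibitors, NFAT kinases and other NFAT regulators, 12 of 13 were tested and none was called by limma (median 0.05). Rcan1, a calcineurin inhibitor that NFAT itself induces, was at 691, 992 and 1063 in WT and 988, 1358 and 1338 in Ikzf4-/- libraries, which overlapped (log2 fold change 0.43, limma adjusted p = 0.184). For EGR, none of the 6 genes of the corepressors Nab1 and Nab2, serum response factor and its ELK partners was called by limma (median 0.00). Elk4 came nearest, at 0.25 on the log2 scale with genotypes that did not overlap (limma adjusted p = 0.0616). It was called in the authors' deposited table (adjusted p = 0.00948). Of the NR4A partners and related factors, 4 of 6 were tested and none was called by limma (median 0.08). Their log2 fold changes were -0.07 for Rxrb and -0.01 for Rxra, which encode retinoid X receptors, 0.17 for Tox and 0.29 for Bcl2l11, which encodes the death-promoting protein Bim. Bcl2l11 did not overlap between genotypes and was called in the authors' deposited table (adjusted p = 0.0304).

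Among 20 genes linked to NFAT, 3 were called lower and none higher by limma, against 1.20% and 0.572% of all genes. Their median was -0.03. Il4 was at 491, 427 and 430 in WT and 257, 271 and 212 in Ikzf4-/- libraries and fell by 0.87 on the log2 scale (SE 0.12, limma adjusted p = 0.0144). Il13, the other Th2 cytokine on the list, fell by 0.82 (0.0450), and Lag3, an inhibitory receptor, fell by 0.60 (0.0355). The authors' deposited table also called Irf4 lower (adjusted p = 0.00219). Il2, which encodes the T cell growth factor, was at 1189, 2040 and 2798 in WT and 3418, 3818 and 3706 in Ikzf4-/- libraries. These did not overlap, and WT replicate 1 was again the lowest (log2 fold change 0.94, limma adjusted p = 0.0621). Without WT replicate 1 the log2 fold change of Il2 was 0.61 and passed the test (limma adjusted p = 0.0106), as did that without WT replicate 3 (1.23, 0.0107). WT replicate 1 was the lowest library for 12 of these 20 genes, and for 23.6% of all genes.

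Of 9 genes linked to EGR factors, only Nfil3, a leucine zipper repressor, was called by limma, at 5378, 3971 and 3545 in WT and 2533, 2870 and 2526 in Ikzf4-/- libraries. It fell by 0.68 on the log2 scale (SE 0.12, limma adjusted p = 0.0292). The other 8 had log2 fold changes from -0.90 for Ndrg1 (limma adjusted p = 0.0974) to 0.54 for Cdkn1a (0.0862). Among genes known from T cell anergy, Cblb, Dgka, Dgkz and Itch lay between 0.03 and 0.10, and Rnf128 was at -0.24. Dgka (chromosome 10, 128720134 to 128744855) lies close to the targeted gene Ikzf4 (chromosome 10, 128630843 to 128645991). Whether this position bears on its value was not tested. Of 17 other immediate-early genes, 3 were called lower by limma (1.20% of all genes), with a median of 0.02. Atf3, a stress-induced AP-1 relative, was at 1713, 1720 and 1660 in WT and 795, 1014 and 904 in Ikzf4-/- libraries. It fell by 0.91 (SE 0.08, limma adjusted p = 0.00102) and kept its call whichever library was left out. Junb fell by 0.41 (0.0319) and Myc by 0.42 (0.0490). The other 14 had log2 fold changes from -0.43 for Ier3 to 0.18 for Btg2, with Fos at 0.15 and Jun at 0.13, and the genes of the ERK phosphatases Dusp4, Dusp5 and Dusp6 at -0.16, -0.13 and 0.03. None of these was called by limma, and Ier3 was called lower in the authors' deposited table (adjusted p = 0.0493). Leaving out single libraries ended the call of Il13 in 5 of 6 fits, of Nfil3, Lag3 and Myc in 4, of Junb in 3 and of Il4 in 1, and leaving out Ikzf4-/- replicate 3 ended it for all 6.

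**Figure D5:**
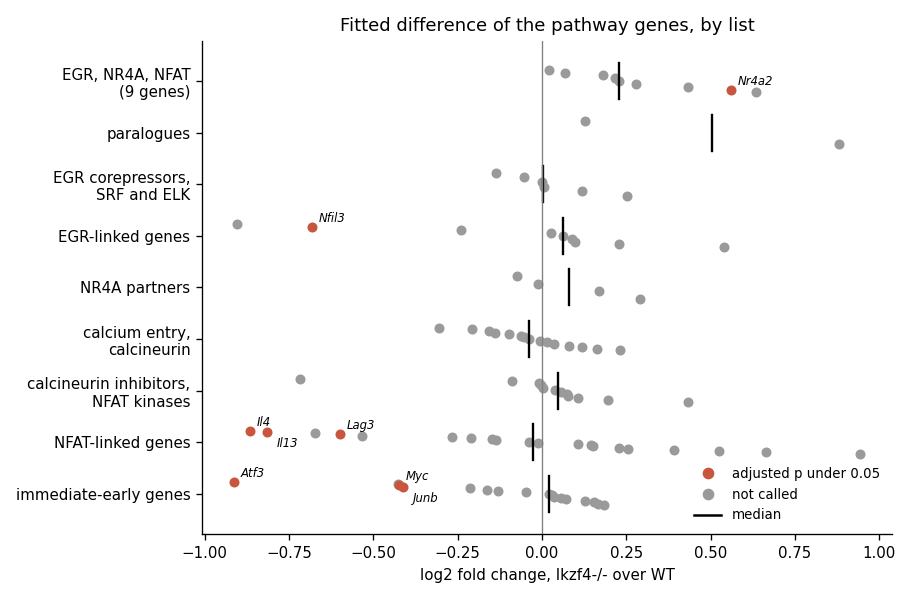
Log2 fold change, Ikzf4-/- over WT, of the 9 genes (top row) and of the tested genes of 8 pathway lists, 1 point per gene, with the median as a bar and genes called by limma in red with their names. Called genes of the lists lie below 0, and Nr4a2 is the only called gene above it.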

How the data were processed

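Total RNA was sequenced in 3 WT and 3 Ikzf4-/- libraries, and the samples were grouped and numbered by their labels. Per the submitters' processing notes, Trimmomatic 0.36, STAR 2.5.2b, DESeq2 and the builds GRCm38 and mm10 were used. The counting tool, its use of strand and the annotation are not given in the sources used here. The deposited sample columns hold a signal that is never negative, read as normalized counts, since 100% of the values of each library were whole multiples of 1 step (within 0.0001 of a whole number). The steps of Ikzf4-/- replicates 1 and 3 (1.01 and 1.00) lay near 1. The check on units did not accept these 2 columns as recovered reads, so no count test was run. The authors' log2 fold changes, p-values and adjusted p-values were deposited in the same table, with no adjusted p-value for 2019 genes.

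Genes with a mean of at least 10 (14864) were fitted as log2(value + 1) with limma 3.58.1 in R 4.3.3 (limma-trend, genotype as the only term, two-sided), adjusted by Benjamini-Hochberg over all genes and called under 0.05. The fit was tested on simulated data. Fold changes on this scale understate the change of low genes. The 9 genes and the lists were chosen with earlier results of these data known. Named genes were the 9, Ikzf4, called list genes, list genes that a sentence needed, and the genes most alike in profile. Positions and exon lengths come from GENCODE M21 on GRCm38. Alternatives were other scalings, filters and pseudocounts, leaving out each library in turn, a block for the replicate number, and the deposited comparison.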

Additional observations from a re-analysis of the deposited data

How the results depend on the processing

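Of the 9 genes, Nr4a2 alone was called with quantile scaling, equal library totals, either other filter (none, or at least 10 in all libraries) and either other pseudocount (0.1 or 10), and all 9 log2 fold changes were above 0 there. Il13 (0.0503) and Myc (0.0518) lost their call with equal totals, and Myc also with a pseudocount of 0.1 (0.0515). The 9 genes kept that sign in every fit but those of Nfatc2 without WT replicate 2 (adjusted p = 0.973) or 3 (0.849).

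Fits without 1 library called 0 to 3 of the 9 genes: Nr4a1 and Nr4a2 without WT replicate 1, these and Egr1 without WT replicate 3, and none in the other 4. Their adjusted p ran from 0.0428 to 0.184 for Egr1, 0.132 to 0.419 for Egr2, 0.207 to 0.839 for Egr3, 0.00901 to 0.235 for Nr4a1, 0.0118 to 0.158 for Nr4a2, 0.0560 to 0.320 for Nr4a3, 0.0791 to 0.313 for Nfatc1, 0.439 to 0.992 for Nfatc2 and 0.414 to 0.753 for Nfatc3. They called 1 to 11 of the pathway genes (7 with all libraries), 20 to 523 of all genes (263) and 6 to 189 higher (85). The cause was not tested.

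The authors' deposited table called Egr1 (0.00260), Nr4a2 and Nfatc1 (0.0439), 3 of the 9, with 15 pathway genes (11 lower and 4 higher) and 815 genes in all, 315 higher. The cause was not tested.

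With the replicate number as a block, 6 of the 9 were called: Egr1 (0.0129), Egr2 (0.0233), Egr3 (0.0432), Nr4a1 (0.0110), Nr4a2 (0.00842) and Nr4a3 (0.0111), with 16 pathway genes and 754 genes in all, 296 higher. Across genes, libraries that share a number deviated from their group means with correlations of 0.145, 0.0122 and 0.142 for replicates 1, 2 and 3. Libraries with different numbers had correlations from -0.163 to 0.0491. Replicates 1 and 3 correlated best with their own number, and replicate 2 did not. These values cannot settle whether the numbers are pairs, and the labels do not say what a number shares. The main fit therefore did not treat them as pairs.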

Other observations

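The genes whose profile over the 6 libraries was most like that of the most variable gene of each family were sought among 11591 genes with a mean of at least 50, by the root mean square difference of centred log2 values. For Nr4a1 they were Gnaq (0.04), which encodes a G protein alpha subunit, Plk2 (0.07), a polo-like kinase, and Gm28187 (0.08). The WT libraries held 1655, 2651 and 2954 normalized counts of Plk2 and the Ikzf4-/- libraries 3830, 3821 and 3927, apart as for Nr4a1, and Plk2 was not called (log2 fold change 0.72, limma adjusted p = 0.0553). For Egr3 they were Socs5 (0.03), Igf2r (0.05) and Phlda1 (0.05), each lowest in WT replicate 1 and highest in Ikzf4-/- replicate 3. For Nfatc1, whose log2 values varied less (SD 0.12 against 0.45 for Nr4a1), they were Hsd17b10, Ttc9c and Taf2 (0.02 each). None of the genes found in this way was called. They were picked for their profile, so the patterns they share with Nr4a1, Egr3 or Nfatc1 follow from that choice. A likeness over 6 libraries is a description.

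Cd5, a surface receptor whose level is known to follow the strength of T cell receptor signals, was looked at as a marker of T cells and is named after its values were seen. The WT libraries held 7926, 8293 and 8926 normalized counts of Cd5 and the Ikzf4-/- libraries 10617, 9750 and 11189, which did not overlap. WT replicate 1 was again the lowest, but by less than for the NR4A genes. Cd5 rose by 0.33 on the log2 scale (limma adjusted p = 0.0306), and lost the call without WT replicate 2 (0.0794), Ikzf4-/- replicate 1 (0.0894) or Ikzf4-/- replicate 3 (0.116). None of the other CD4 T cell markers was called by limma. Their log2 fold changes were -0.16 for Cd3g, -0.10 for Cd28, 0.05 for Cd3d, 0.08 for Cd4, 0.09 for Cd3e and 0.19 for Trac. Whether receptor signals differed between genotypes was not tested.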
